A study of Papio anubis and Macaca mulatta with 6 samples.

Results

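The 10 genes described here belong to glycolysis and lactate transport and were followed through the cells of prepubertal baboon and rhesus testis: the lactate dehydrogenases LDHA and LDHB, the monocarboxylate carriers SLC16A1 and SLC16A3, the glucose carriers SLC2A1 and SLC2A3, the hexokinases HK1 and HK2, the phosphofructokinase PFKP and the pyruvate kinase PKM. They were taken by symbol. The gene table of each species listed 9 of the 10, out of 34178 genes in baboon and 21356 in rhesus; SLC2A3 in baboon and PKM in rhesus were not analysed here. The cells came from 2 olive baboons and 2 rhesus macaques, all immature and euthanized for another purpose, with no treatment named in the paper. Their testes were taken at necropsy and digested with collagenase and then trypsin, with a wash against interstitial cells between the steps. The cells were profiled without sorting by 10x Genomics 3′ single-cell RNA-seq. The sources name the ages newborn, 15, 20 and 26 months but disagree on which species they belong to, so no age is attached to an animal here. There were 6 libraries: 1A and 1B from baboon 1, 2A and 2B from rhesus 2, and a single one from each of the remaining animals. Baboon 2 was made with chemistry version 3 and every other library with version 2, so chemistry and animal cannot be told apart in baboon.

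In the seminiferous tubule, Sertoli cells take up glucose, pass it through glycolysis and export lactate, which germ cells can use as fuel. Whether the germ cells of these immature testes use lactate was not measured. Hexokinase traps glucose in the cell, phosphofructokinase commits it to glycolysis, and pyruvate kinase makes pyruvate. Lactate dehydrogenase interconverts pyruvate and lactate; its A subunit is known for lactate formation and its B subunit for the reverse step. Monocarboxylate carriers move lactate across the membrane.

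A total of 23057 baboon and 26473 rhesus cells were kept, with median depths of 1445 to 2743 UMIs per library; a UMI stands for 1 captured RNA molecule. Libraries shared at most 1.65% of the barcodes of the smaller library. Cells were assigned to classes by marker UMIs, and a class is called "-like" because the names were rebuilt here. Baboons 1 and 2 gave 12623 and 3935 Sertoli-like, 117 and 118 germ-like and 1998 and 3712 other cells; rhesus 1 and 2 gave 3984 and 4063 Sertoli-like, 324 and 63 germ-like and 6466 and 10726 other cells. Stroma-like cells made up 85.4% to 92.5% of the other cells, which also held contractile-like, endothelial-like and macrophage-like cells, Leydig-like cells in rhesus and lymphoid-like cells in baboon. The paper names Leydig cells in baboon too. No Leydig-like class was formed there, as fewer than 20 cells met the marker rule, with 5 of the 8 markers listed. Where such cells were placed was not tested. By whole profile 64.2% of rhesus contractile-like and 71.7% of baboon macrophage-like cells kept their class, and 86.2% to 99.6% of each of the other classes. Rhesus germ-like cells carried a median of 2 germ cell markers and 2 of another class, so their name is less sure than in baboon, with 7 and 2. A gene kept out of the assignment is given here for the germ-like and the Sertoli-like name only. Levels are given throughout as CPM, the UMIs of a gene scaled to 1000000 UMIs of the class in an animal. The germ cell gene MAEL stood at 248 and 165 CPM in baboon and 176 and 171 in rhesus germ-like cells, against 0.515 to 3.25 in Sertoli-like cells. DHH, a Sertoli cell ligand, stood at 65.9 and 46.8 in baboon and 95.2 and 162 in rhesus Sertoli-like cells, against 1.87 to 8.95 in germ-like cells. Between 17.6% and 41.9% of an animal's germ-like cells also carried at least 3 markers of another class, so counts of germ-like cells were repeated without them. Germ-like cells were the deeper ones in baboon, with medians of 8912 and 5506 UMIs against 2015 and 4667 in Sertoli-like cells.

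HK2 was the one gene of the group that was called higher in Sertoli-like than in both germ-like and other cells in both species. In CPM, baboon Sertoli-like cells stood at 70.3 and 76.9 (73.6 ± 4.68, SD, n = 2 animals) and rhesus Sertoli-like cells at 117 and 128 (122 ± 7.96). The germ-like cells stood at 5.98 and 8.42 in baboon and 7.16 and 3.48 in rhesus, and the other cells at 9.01 and 13.2 in baboon and 11.1 and 8.25 in rhesus. Both Sertoli-like values lay above both values of every other class in each species. The next class in the order of HK2 levels was macrophage-like, at 36.3 ± 13 in baboon (4 UMIs) and 28.9 ± 14.2 in rhesus (12 UMIs). The libraries of 1 animal gave like values, 73.3 and 65.3 in Sertoli-like cells of baboon 1 and 131 and 125 in those of rhesus 2. RNA free in the droplets, read from near-empty barcodes, held HK2 at 22.2 to 54.1, below every Sertoli-like value and above every germ-like value.

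**Figure D1:**
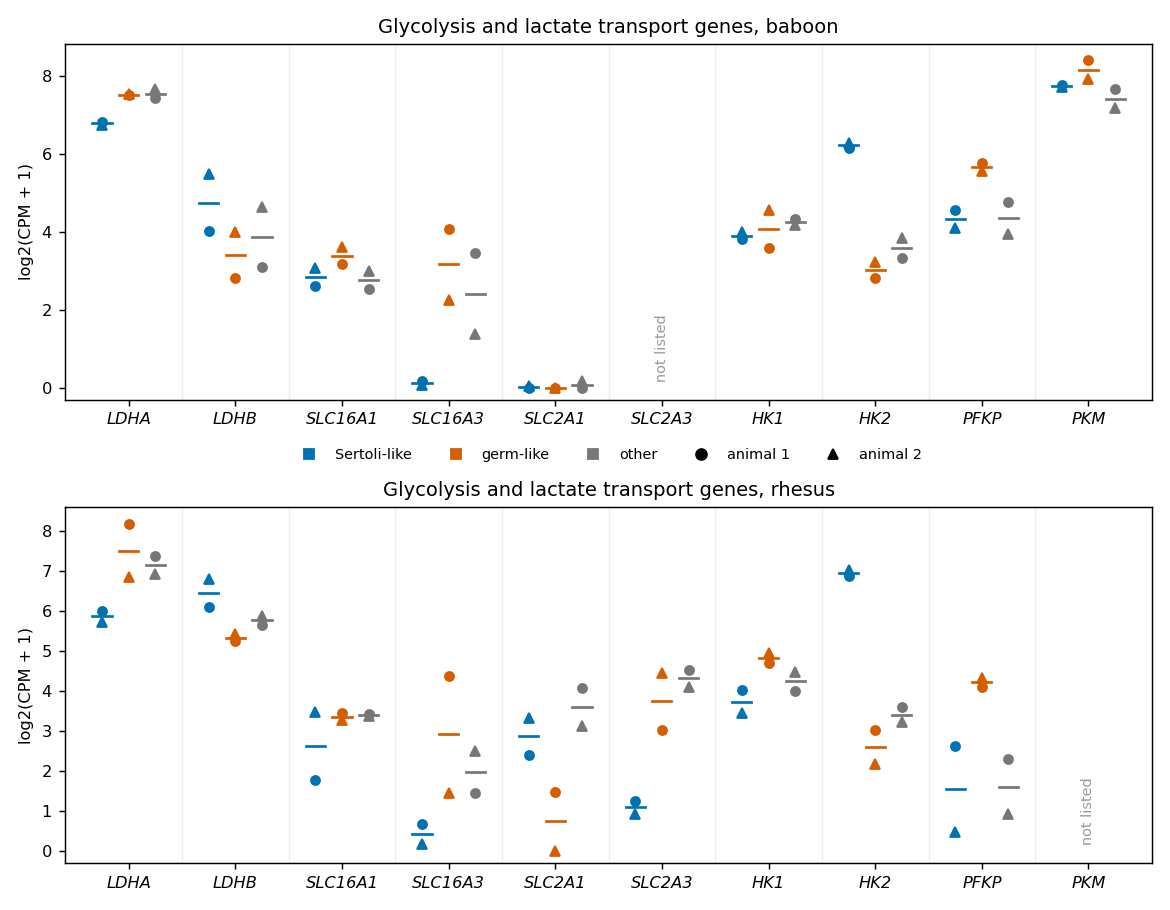
Level of each gene on the scale log2(CPM + 1) in Sertoli-like, germ-like and other cells, with a symbol for each animal and a bar at the mean of the 2 animals. HK2 in Sertoli-like cells, at 70.3 to 128 CPM, lies above germ-like and other cells in both species, while LDHA in Sertoli-like cells lies below them.

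Differences between classes were tested on UMI counts summed over each class of an animal, with edgeR's quasi-likelihood test over all genes of a species and Benjamini-Hochberg adjustment; a gene was called at an adjusted p below 0.05. Each fit rests on 2 animals. Against other cells, HK2 was higher in Sertoli-like cells by 2.72 ± 0.29 on the log2 scale in baboon (SE; adjusted p = 0.00151, edgeR) and by 3.55 ± 0.36 in rhesus (adjusted p = 0.00242, edgeR). The ratio of the levels was 7.81 and 5.82 within baboons 1 and 2, and 10.5 and 15.5 within rhesus 1 and 2. Against germ-like cells the log2 differences were 4.02 ± 0.34 (adjusted p = 0.000516, edgeR) and 4.75 ± 0.45 (adjusted p = 0.00215, edgeR), with ratios of 11.8 and 9.14 in the baboons and 16.3 and 36.8 in the rhesus macaques. The germ-like side of these ratios holds 15 UMIs in baboon and 10 in rhesus. HK2 kept these 4 calls in all of the alternatives in which a test could be run.

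Cell by cell, HK2 was detected sparsely even in Sertoli-like cells. With every cell thinned to 1000 UMIs, 5.93% and 8.04% of Sertoli-like cells of baboons 1 and 2 had an HK2 UMI, and 7.30% and 11.5% of those of rhesus 1 and 2. The share was 0.909% to 0.99% in baboon and 0.8% to 2.13% in rhesus germ-like cells, from 1 or 2 cells each, and 0.495% to 0.859% in stroma-like cells. Thinning left out 1129 and 214 Sertoli-like cells of the baboons, and 397 and 686 of the rhesus macaques, that were shallower. Without thinning, the Sertoli-like shares were 14.3% and 38.4% in baboon, where median depths differed between animals, and 15.0% and 19.6% in rhesus. The part of free RNA in the low shares of germ-like and stroma-like cells was not tested.

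**Figure D2:**
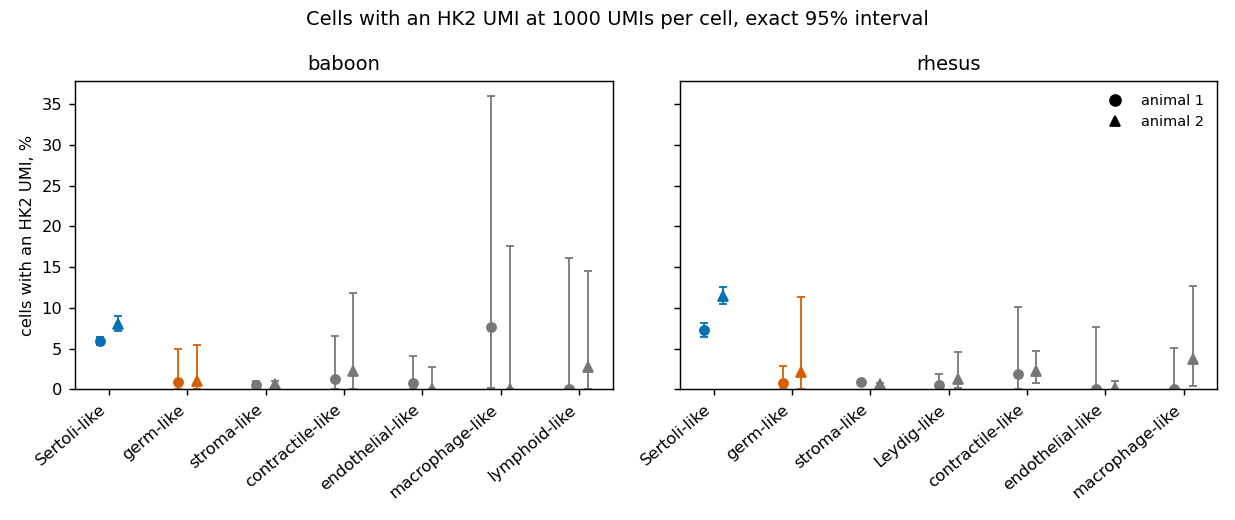
Percent of cells with at least 1 HK2 UMI after thinning each cell to 1000 UMIs, by class and animal, with exact (Clopper-Pearson) 95% intervals that cover counting error only. Sertoli-like cells reach 5.93% to 11.5%, against at most 2.13% of germ-like and 0.859% of stroma-like cells; macrophage-like intervals are wide because they rest on 13 to 70 cells an animal.

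HK1, the hexokinase found in most tissues, did not follow HK2. Sertoli-like cells held it at 13 and 14.9 in baboon and 15.2 and 9.90 in rhesus, other cells at 19.2 and 17.2 and at 14.9 and 21.4, and germ-like cells at 11 and 22.5 and at 25.1 and 29.6. The groups overlapped in 3 of these 6 comparisons and HK1 was called in none (adjusted p = 0.150 to 0.841, edgeR). HK2 therefore made up 84.4% and 83.8% of the HK1 and HK2 UMIs in baboon Sertoli-like cells and 88.5% and 92.8% in rhesus. The exact 95% intervals of these shares ran from 82.4% to 85.7% in baboon and from 86.5% to 94.3% in rhesus. In stroma-like cells the share was 35.4% and 47.7% in baboon and 42.5% and 25.5% in rhesus, and in germ-like cells 27.3% to 35.3% and 10.5% to 22.2%. In Leydig-like cells of rhesus 1 and 2 it was 46.2% and 84.0%, on 26 and 25 UMIs. UMIs mark molecules at the 3′ end and were not divided by length; a share of 2 genes also depends on how well each 3′ end is annotated, so shares are compared between classes and not between species.

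LDHA was lowest in Sertoli-like cells. In baboon its level was 111 and 106 in Sertoli-like cells against 179 and 183 in germ-like and 170.0 and 202 in other cells; in rhesus it was 63.2 and 51.8 against 289 and 113, and against 165 and 121. Every other class of every animal lay above the Sertoli-like cells of its species. The next class by mean was stroma-like, at 181 ± 20.1 in baboon, level with germ-like cells, and at 140 ± 29.1 in rhesus. The nearest single values were 153 in endothelial-like cells of baboon 1 and 103 in Leydig-like cells of rhesus 2. Against other cells the difference was −0.77 ± 0.20 log2 in baboon (adjusted p = 0.0370, edgeR), a level ratio of 0.655 and 0.522 in the animals. In rhesus it was −1.40 ± 0.49 with ratios of 0.383 and 0.430, and did not pass the test (adjusted p = 0.108, edgeR), but passed with the animal as a replicate block (adjusted p = 0.00326, edgeR). The baboon call was lost without library 1A, at −0.78 (adjusted p = 0.0508, edgeR), with no filter on low counts (0.101) and with cells called by the UMI cutoff alone (0.100). Against germ-like cells the difference was −0.066 ± 0.21 in baboon (adjusted p = 0.812, edgeR), though −0.75 on plain UMI totals (adjusted p = 0.0246, edgeR). In rhesus it was −1.44 ± 0.50 (adjusted p = 0.0601, edgeR), and passed with the block (adjusted p = 0.00345, edgeR). The free RNA held LDHA at 144, 49.8 and 101 in baboon libraries 1A, 1B and 2, against 111, 112 and 106 in their Sertoli-like cells, and at 76.3 to 103 in the rhesus libraries, above their Sertoli-like levels.

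LDHB ran the other way. Its level was 15.2 and 43.3 in baboon Sertoli-like cells, 7.51 and 24.0 in other cells and 5.98 and 15.0 in germ-like cells. Other cells overlapped both groups, and Sertoli-like cells lay just above germ-like cells without overlap. Within each baboon Sertoli-like cells were the highest of these groups. In rhesus Sertoli-like cells stood at 66.9 and 111, germ-like cells at 36.7 and 41.8 and other cells at 49.4 and 57.4, with no overlap. The Sertoli-like excess over germ-like cells was called in rhesus, at 1.49 ± 0.28 log2 (adjusted p = 0.00756, edgeR), with level ratios of 1.82 and 2.65. In baboon it was 2.11 ± 0.76 (adjusted p = 0.0585, edgeR), ratios of 2.54 and 2.90, and was called with the animal as a block (adjusted p = 5.04e-05, edgeR). Against other cells the excess was 0.84 ± 0.65 in baboon and 0.59 ± 0.25 in rhesus and was called in neither (adjusted p = 0.433 and 0.177, edgeR); the block brought the baboon value to adjusted p = 0.00367 (edgeR) and left rhesus at 0.0724. The rhesus Leydig-like cells, at 71.4 and 109, overlapped the Sertoli-like cells.

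The balance of the 2 lactate dehydrogenase subunits thus differed between these classes within each animal, in shares that were described and not tested. LDHA made up 88.0% and 70.9% of LDHA and LDHB UMIs in Sertoli-like cells of baboons 1 and 2, against 96.8% and 92.5% in germ-like and 95.7% and 88.6% in stroma-like cells. In rhesus 1 and 2 it made up 48.6% and 31.9% in Sertoli-like cells, against 88.7% and 73.0% in germ-like and 77.6% and 66.9% in stroma-like cells. In each animal the Sertoli-like share was below those of germ-like and stroma-like cells. The exact intervals, which cover counting error only, did not overlap within an animal. Across animals, Sertoli-like cells of baboon 1, at 88.0%, were close to stroma-like cells of baboon 2, at 88.6%. Leydig-like cells of rhesus 1 and 2 held 255 and 79 LDHA UMIs and 95 and 83 LDHB UMIs. Animal 2 of each species gave the lower share in all 3 classes. Over the alternatives to calling and assigning cells, the Sertoli-like share stayed at 87.6% to 88.3% and 70.8% to 71.9% in the baboons and at 46.3% to 49.0% and 29.7% to 34.8% in the rhesus macaques.

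**Figure D3:**
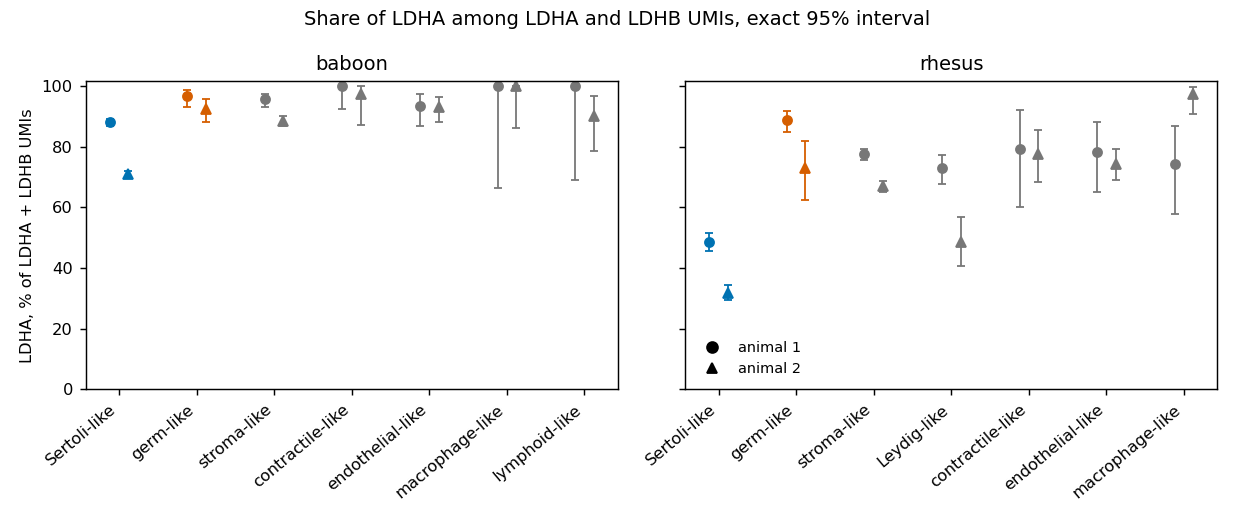
LDHA as a percent of LDHA and LDHB UMIs by class and animal, with exact (Clopper-Pearson) 95% intervals that cover counting error only. Within each animal the Sertoli-like share, at 88.0% and 70.9% in baboon and 48.6% and 31.9% in rhesus, lies below the germ-like and stroma-like shares.

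Contrasts with germ-like cells depend on the scale for genes of small difference. The TMM factors of germ-like sums were 1.19 to 1.39 and those of the other sums 0.804 to 1.11, so that TMM moved the median log2 difference of all genes, germ-like against other cells, from 0.43 on plain UMI totals to −0.24 in baboon, and from 0.29 to −0.17 in rhesus. With it, the share of called genes that were higher in germ-like cells went from 69.1% to 44.6% in baboon and from 67.7% to 47.9% in rhesus; for Sertoli-like against germ-like cells the share higher in Sertoli-like cells went from 28.3% to 50.9% and from 35.1% to 52.0%. LDHA in germ-like cells shows what this does. Its levels in baboon, 179 and 183, overlapped those of other cells, 170.0 and 202, yet TMM placed it lower by 0.70 ± 0.21 log2 (adjusted p = 0.0345, edgeR); on UMI totals the difference was −0.030 (adjusted p = 0.920, edgeR). HK2 in baboon germ-like cells was called lower than in other cells at −1.30 ± 0.35 (adjusted p = 0.0246, edgeR), and was not on UMI totals, at −0.63 (adjusted p = 0.215, edgeR); without cells carrying markers of another class the sign turned, at 0.19. In rhesus germ-like cells HK2 was not called at −1.21 ± 0.47 (adjusted p = 0.0837, edgeR), and was with the block (adjusted p = 0.0301, edgeR). LDHB in rhesus germ-like cells was called lower at −0.91 ± 0.27 (adjusted p = 0.0376, edgeR), against −0.45 on UMI totals (adjusted p = 0.424, edgeR), and in baboon it was −1.27 ± 0.77 (adjusted p = 0.229, edgeR; 0.00549 with the block). Without library 1A the baboon LDHA and HK2 calls were lost, at −0.54 and −1.34 (adjusted p = 0.115 and 0.0631, edgeR), as was the rhesus LDHB call without library 2A, at −0.78 (adjusted p = 0.0840, edgeR).

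SLC16A3, the carrier known from strongly glycolytic cells that export lactate, was nearly missing from Sertoli-like cells. It gave 4 and 2 UMIs in the 12623 and 3935 baboon Sertoli-like cells, a level of 0.129 and 0.0587, and 5 and 1 UMIs in the rhesus Sertoli-like cells, a level of 0.581 and 0.127. Germ-like cells held it at 16.0 and 3.74 in baboon and 19.7 and 1.74 in rhesus, the last on 1 UMI. Both Sertoli-like values were below both germ-like values in each species, and the difference was called at −5.91 ± 1.28 log2 in baboon (adjusted p = 0.00964, edgeR) and −4.55 ± 1.24 in rhesus (adjusted p = 0.0283, edgeR); without rhesus 1 the rhesus difference was −3.53, which leaves 1 animal and no test. The highest levels were in small classes, on 1 to 56 UMIs an animal. Lymphoid-like cells of baboon stood at 59.0 and 23.7, endothelial-like cells at 39.9 and 12 in baboon and 4.46 and 26.4 in rhesus, and macrophage-like cells of rhesus at 9.44 and 43.9. Stroma-like cells held 0.837 and 0 in baboon and 1.32 and 1.12 in rhesus. Accordingly the baboon call against other cells, −5.76 ± 1.24 (adjusted p = 0.0173, edgeR), fell to −1.36 with stroma-like cells alone as the comparison (adjusted p = 0.658, edgeR). In rhesus that difference was −3.11 ± 1.17 and was not called (adjusted p = 0.129, edgeR).

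SLC16A1, the widely expressed monocarboxylate carrier, was called in no comparison between classes. Sertoli-like cells held it at 5.15 and 7.42 in baboon and 2.44 and 10.2 in rhesus, germ-like cells at 7.98 and 11.2 and at 9.84 and 8.70, and other cells at 4.81 and 6.92 and at 9.71 and 9.42. In baboon both germ-like values lay above those of the other groups, which overlapped each other; in rhesus the Sertoli-like values spanned those of both other groups. The adjusted p was 0.408 to 0.957 (edgeR). It was the main one of the pair in Sertoli-like cells: SLC16A3 made up 2.44% and 0.784% of their UMIs in baboon and 19.2% and 1.23% in rhesus. In endothelial-like cells of baboon the share was 96.3% and 75.0%, on 27 and 12 UMIs, and in rhesus 2 it was 68.3%, on 82 UMIs.

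Of the glucose carriers, SLC2A1 (chr1:181595187-181628394, Mmul_10) was measured in rhesus only. In baboon it gave 2 UMIs in all cells and was not tested; its gene model there spans 4197 bases (chr1:41261613-41265809, Panubis1.0) against 33208 in rhesus, and the part of this in the low count was not tested. In rhesus it stood at 4.30 and 9.02 in Sertoli-like, 15.9 and 7.75 in other and 1.79 and 0 in germ-like cells, the latter on 2 UMIs. Leydig-like cells were highest, at 29.3 and 21.0, above every other class. The lower level in germ-like than in other cells was called (adjusted p = 0.0201, edgeR), at a pooled ratio of 0.108 with an exact 95% counting interval of 0.013 to 0.392, and the call was lost without cells carrying markers of another class (adjusted p = 0.102, edgeR). Sertoli-like cells did not differ from other cells beyond the spread, at −1.03 ± 0.62 (adjusted p = 0.340, edgeR), and rhesus 1 and rhesus 2 went opposite ways, with ratios of 0.270 and 1.16. Against germ-like cells the Sertoli-like excess was 2.80 ± 1.00 (adjusted p = 0.0669, edgeR), or adjusted p = 0.0480 with the animal as a block (edgeR).

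SLC2A3 in rhesus (chr11:11576181-11592299, Mmul_10) was highest in endothelial-like cells: 156 and 54.3 there, 61.4 and 29.3 in macrophage-like, 32.8 and 21.8 in contractile-like and 19.3 and 10.9 in stroma-like cells. Germ-like cells held 7.16 and 20.9 and Sertoli-like cells 1.39 and 0.889. Sertoli-like cells were called lower than other cells, at −4.12 ± 0.66 log2 (adjusted p = 0.00895, edgeR), and lower than germ-like cells, at −3.12 ± 0.71 (adjusted p = 0.0147, edgeR; 0.0640 without cells carrying markers of another class). This value is uncertain, because SLC2A14 is a near-identical copy whose reads the counting could split from those of SLC2A3 or discard. SLC2A14 was at 13.9 and 5.08 in Sertoli-like cells, on 120 and 40 UMIs, and at 2.64 and 0.279 in other cells. Summed over both genes, the Sertoli-like level was 0.627 and 0.362 of that in other cells in rhesus 1 and 2, in place of 0.0639 and 0.0548 for SLC2A3 alone. Against germ-like cells the direction of the sum differed between the animals, at 15.3 in Sertoli-like and 9.84 in germ-like cells of rhesus 1, and at 5.97 and 27.9 in rhesus 2.

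**Figure D4:**
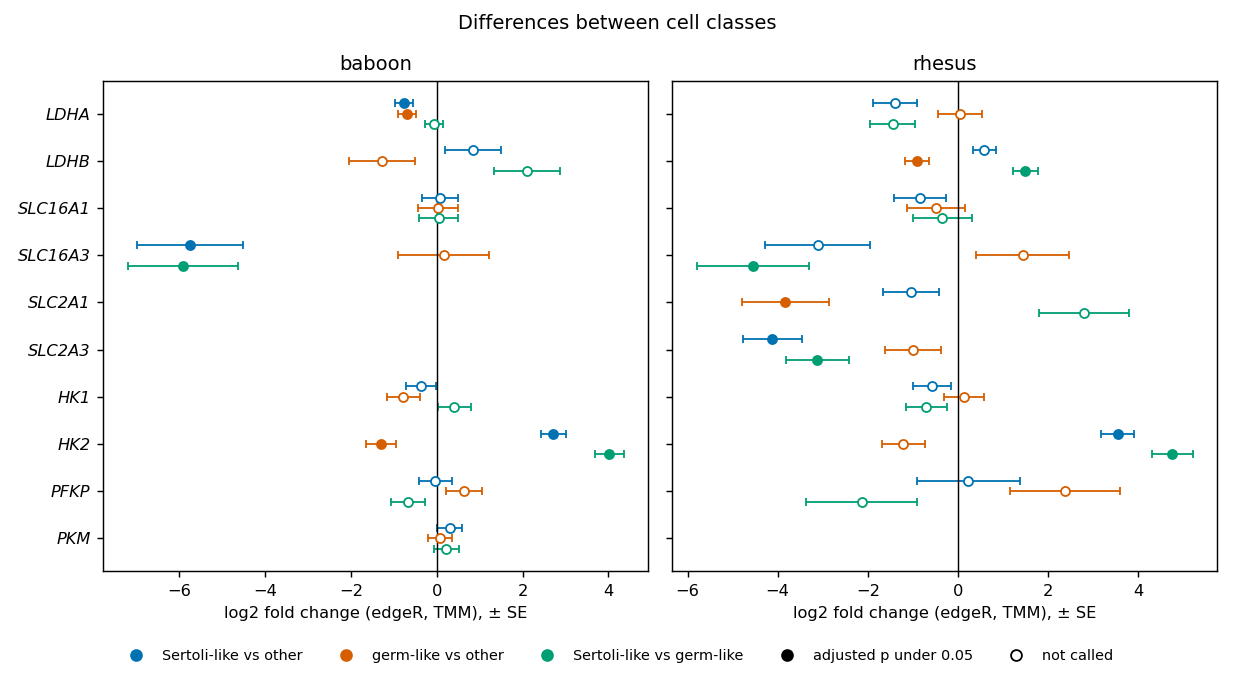
Log2 difference between classes for each gene, with its SE, from edgeR with TMM scaling on sums of 2 animals; filled points have an adjusted p below 0.05. HK2 lies to the right, at 2.72 to 4.75, in both contrasts of Sertoli-like cells and in both species, and SLC16A3 to the left, at −3.11 to −5.91.

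PFKP was highest in germ-like cells among the 3 groups. Its level was 52.8 and 45.8 there in baboon, against 22.6 and 16.1 in Sertoli-like and 26.1 and 14.3 in other cells. In rhesus it was 16.1 and 19.1, against 5.11 and 0.381 and against 3.92 and 0.892. Germ-like cells did not overlap either of these groups, which overlapped each other. They were 2.02 and 3.20 times the other cells in the baboons and 4.11 and 21.5 times in the rhesus macaques, the last on 11 germ-like UMIs. Under TMM the differences, 0.64 ± 0.41 and 2.37 ± 1.22 log2, were not called (adjusted p = 0.254 and 0.172, edgeR), but with the animal as a block they were (adjusted p = 0.0292 and 0.0363, edgeR). Against Sertoli-like cells the block gave calls in both species too (adjusted p = 0.0187 and 0.0411, edgeR), in place of 0.213 and 0.216. The baboon lymphoid-like cells lay higher, at 138 and 63.2 on 15 UMIs.

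PKM, measured in baboon only, was the most abundant of the group, with 16307 UMIs. It stood at 335 and 241 in germ-like, 216 and 207 in Sertoli-like and 202 and 142 in other cells, and was called in no comparison (adjusted p = 0.532 to 0.848, edgeR). Its sign against germ-like cells turns with the scale, 0.22 under TMM and −0.46 on UMI totals.

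Counted over the group, 8 of the baboon and all 9 of the listed rhesus genes passed the filter on low counts. Against other cells, 1 of 8 was called higher and 2 lower in baboon Sertoli-like cells, where 8.48% of 16034 genes were called higher and 14.4% lower, and 1 of 9 was called higher and 1 lower in rhesus, where 5.48% and 7.18% of 13143 genes were. With the animal as a block 2 were higher and 2 lower in baboon, beside 3485 and 3549 of all genes. In rhesus the block gave 1 higher and 2 lower, beside 1639 and 1766 of all genes. In germ-like against other cells none was called higher and 2 lower in each species; the background was 18.4% higher and 22.8% lower in baboon and 15.7% and 17% in rhesus. On UMI totals these counts became 1 higher and 0 lower in baboon, beside 4622 and 2065 of all 16034 genes. In rhesus they became 0 higher and 1 lower, beside 2703 and 1289 of all 13143 genes. With the animal as a block they were 1 higher and 3 lower in each species. All genes then gave 4065 higher and 5439 lower in baboon, and 2657 higher and 3052 lower in rhesus. Between Sertoli-like and germ-like cells 1 was higher and 1 lower in baboon, against 24.2% and 23.4% of genes, and 2 higher and 2 lower in rhesus, against 15.9% and 14.7%. Here the block gave 2 higher and 2 lower in baboon, beside 5556 and 4741 of all genes. In rhesus it gave 3 higher and 4 lower, beside 2932 and 2603 of all genes. The median log2 difference of the group, Sertoli-like against other cells, was 0.027 in baboon and −0.84 in rhesus, beside 0.060 and −0.0041 over all genes tested. With so few genes the shares of the fit without a block are near the background, and nothing is read from any of these counts about the group as a set.

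Of 13 other glycolytic enzymes tested in baboon, 2 were higher and 3 lower in germ-like than in other cells, and of 14 in rhesus 2 were higher and 2 lower. These counts are near the shares over all genes, 18.4% higher and 22.8% lower in baboon and 15.7% and 17% in rhesus. On UMI totals 6 enzymes were higher and 2 lower in baboon, beside 4622 and 2065 of 16034 genes. In rhesus 2 were then higher and 1 lower, beside 2703 and 1289 of 13143 genes. LDHC, the germ cell lactate dehydrogenase and the neighbour of LDHA on the chromosome (chr12:77740377-77786831, Panubis1.0; chr14:47124215-47172388, Mmul_10), stood at 23.9 and 35.6 in baboon and 85.0 and 76.6 in rhesus germ-like cells, and at 0.127 to 1.39 in Sertoli-like cells. The difference from other cells was 5.26 ± 0.90 (adjusted p = 0.00551, edgeR) and 6.51 ± 1.00 log2 (adjusted p = 0.00381, edgeR). ENO3, the muscle enolase, went the same way at 22.9 and 9.36 and at 59.0 and 31.3 in germ-like cells, against 1.20 to 1.84 in other cells. The triose phosphate isomerase TPI1 went the other way, at 134 and 131 in baboon and 164 and 136 in rhesus germ-like cells, against 395 and 334 and against 420 and 295 in other cells. The liver-type phosphofructokinase PFKL was also lower in germ-like cells of both species, by 1.72 log2 in baboon and by 1.60 in rhesus. In Sertoli-like against other cells 1 baboon enzyme was higher, the enolase ENO1 at 148 and 127 against 59.5 and 43.2, and 1 rhesus enzyme was lower, PFKL at 19.5 and 29.2 against 72.9 and 77.5. Over all genes 8.48% were higher and 14.4% lower in baboon, and 5.48% and 7.18% in rhesus. With the animal as a block 4 enzymes were higher and 3 lower in baboon, beside 3485 and 3549 of 16034 genes. In rhesus 2 were then higher and 2 lower, beside 1639 and 1766 of 13143 genes.

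Among 5 other genes of glucose and monocarboxylate transport tested in baboon, 3 were higher and 2 lower in germ-like than in other cells. Of 6 in rhesus 2 were higher. The shares over all genes were 18.4% higher and 22.8% lower in baboon, and 15.7% and 17% in rhesus. On UMI totals 3 of the transport genes were higher and 1 lower in baboon, beside 4622 and 2065 of 16034 genes. The monocarboxylate carrier SLC16A8 stood at 59.8 and 102 in baboon and 6.26 and 12.2 in rhesus germ-like cells; rhesus Sertoli-like cells had no UMI of it, which puts the germ-like level at least 45.5-fold higher against 3 UMIs over the group. SLC16A7, of the same family, stood at 15.0 and 17.8 and at 8.05 and 3.48 in germ-like cells, on 11 UMIs in rhesus, and at 0.0644 to 0.232 in Sertoli-like cells. All 4 of these differences from other cells were called (adjusted p = 0.00326 to 0.0234, edgeR). BSG, the partner protein of the carriers, was higher in baboon Sertoli-like cells at 608 and 828, and in germ-like cells at 980.2 and 1017, than in other cells at 280 and 298.

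**Figure D5:**
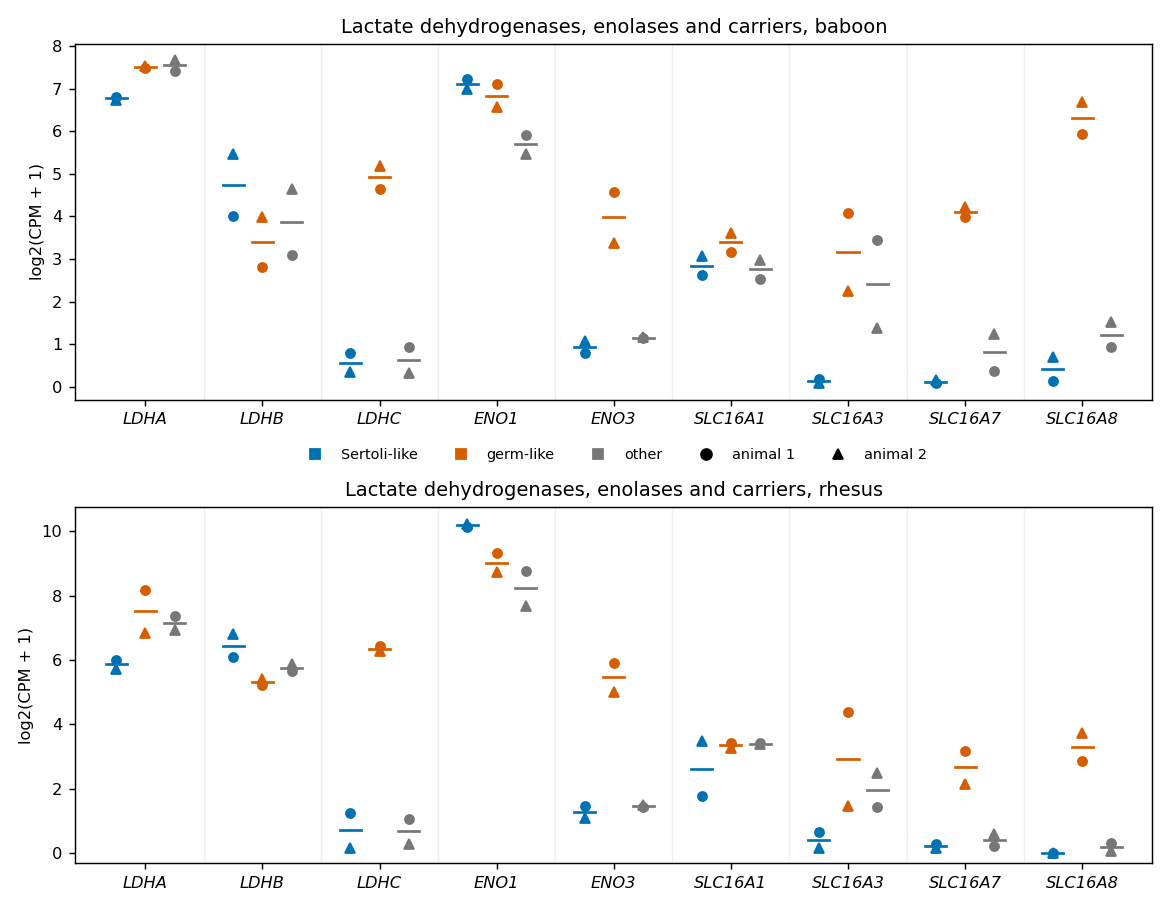
Level of lactate dehydrogenases, enolases and monocarboxylate carriers on the scale log2(CPM + 1) in Sertoli-like, germ-like and other cells, with a symbol for each animal and a bar at the mean. LDHC, ENO3, SLC16A7 and SLC16A8 stand higher in germ-like cells than in the other groups, LDHC at 23.9 to 85.0 CPM.

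At the entry of pyruvate to mitochondria, 10 genes were tested in baboon and 9 in rhesus. PDK3, a kinase that turns off pyruvate dehydrogenase, was higher in Sertoli-like than in other cells of both species, at 80.5 and 105 against 19.5 and 27.4 in baboon (1.98 ± 0.27 log2; adjusted p = 0.00334, edgeR) and 182 and 169 against 44.7 and 39.5 in rhesus (1.96 ± 0.32; adjusted p = 0.00917, edgeR). In that contrast PDK4 was lower in baboon and PDHB, a subunit of pyruvate dehydrogenase, higher in rhesus, and the others were not called. Without the block 8.48% of all genes were higher and 14.4% lower in baboon, and 5.48% and 7.18% in rhesus. With the animal as a block, 3 genes of the list were higher and 2 lower in baboon, beside 3485 and 3549 of 16034 genes. In rhesus 3 were then higher and 0 lower, beside 1639 and 1766 of 13143 genes. MPC1, a subunit of the pyruvate carrier of mitochondria, was lower in germ-like than in other cells, at 16.0 and 16.8 against 78.7 and 84.6 in baboon and at 28.6 and 12.2 against 83.9 and 73.2 in rhesus. MPC2 of the same list stood at 187 and 190 in baboon germ-like and 93.1 and 120 in other cells, and was not called. In germ-like against other cells the list gave 0 higher and 3 lower in baboon and 0 higher and 1 lower in rhesus. Over all genes 18.4% were higher and 22.8% lower in baboon, and 15.7% and 17% in rhesus. On UMI totals the list gave 4 higher and 2 lower in baboon, beside 4622 and 2065 of 16034 genes. In rhesus it gave 0 higher and 1 lower, beside 2703 and 1289 of 13143 genes. Of 4 baboon and 2 rhesus enzymes tested that set fructose 2,6-bisphosphate, only TIGAR in baboon was called without the block. TIGAR was not listed among the rhesus genes. The block gave 2 of the 4 higher and 1 lower in baboon Sertoli-like than in other cells, beside 3485 and 3549 of 16034 genes. TIGAR stood at 5.38 and 9.62 in baboon Sertoli-like, 31.9 and 36.5 in germ-like and 2.70 and 2.97 in other cells. It was called in all 3 comparisons without the block. On UMI totals the call of Sertoli-like against other cells was lost.

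Genes of 2 further lists differed between germ-like and other cells, and some of them also between Sertoli-like and other cells. Of 10 hypoxia response genes, 3 were higher and 3 lower in germ-like than in other cells in each species. The shares over all genes were 18.4% and 22.8% in baboon and 15.7% and 17% in rhesus. On UMI totals 5 were higher and 2 lower in baboon, beside 4622 and 2065 of 16034 genes. ANKRD37, EGLN3 and BNIP3 were higher in both, ANKRD37 at 349 and 363 against 15.9 and 23.6 in baboon, while ADM, DDIT4 and NDRG1 were lower. In Sertoli-like cells ADM, NDRG1 and ANKRD37 were called lower than in other cells in baboon, and ADM and P4HA1 in rhesus. No gene of the list was called higher there without the block. Over all genes 8.48% were higher and 14.4% lower in baboon, and 5.48% and 7.18% in rhesus. The block gave 1 gene of the list higher and 4 lower in baboon, beside 3485 and 3549 of 16034 genes. In rhesus it gave 0 higher and 2 lower, beside 1639 and 1766 of 13143 genes. Of the immediate early and heat shock genes, which respond to tissue handling, 7 of 9 in baboon and 6 of 8 in rhesus were lower in germ-like than in other cells, with JUN at 198 and 394 against 4173 and 10461 in baboon. HSPA8, a heat shock cognate, went the other way. It was called higher in rhesus, at 1132 and 1003 in germ-like against 300.5 and 195 in other cells. In baboon it stood at 1125 and 818 against 435 and 349 and was not called. In Sertoli-like against other cells, 1 was lower in baboon and 2 in rhesus, beside 14.4% and 7.18% of all genes. With the animal as a block 1 was higher and 6 lower in baboon, beside 3485 and 3549 of 16034 genes. In rhesus 0 were then higher and 4 lower, beside 1639 and 1766 of 13143 genes. The part of these lists in the differences of the glycolysis genes was not tested.

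Genes of like pattern were looked up over the 14 sums of 7 classes and 2 animals, as a description; the sums share libraries and differ in depth. For LDHA the highest Pearson correlations of log2(CPM + 1) were with RGS2, DIAPH2 and RCSD1 in baboon (r = 0.852 to 0.865), which all peaked in macrophage-like cells. In rhesus they were with ANXA2, ETS2 and IRF8 (r = 0.676 to 0.730), which peaked in stroma-like, endothelial-like and macrophage-like cells. For LDHB they were with INTU, PLCXD3 and UBA6 in baboon (r = 0.895 to 0.919), of which INTU peaked in germ-like and the others in Sertoli-like cells. In rhesus they were with CUL5, TMEM41A and EXOC3L1 (r = 0.870 to 0.893), of which EXOC3L1 peaked in Leydig-like and the others in Sertoli-like cells. For SLC2A1 in rhesus they were with ENOSF1, EXTL2 and STT3A (r = 0.874 to 0.911), of which the first 2 peaked in Leydig-like cells, and for SLC2A3 with ARHGDIB, UBE2L6 and PZP (r = 0.888 to 0.906), which all peaked in endothelial-like cells.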

How the data were processed

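The authors deposited UMI counts per gene and barcode for 6 libraries, made with Cell Ranger 3.1.0 per the submitters' processing notes, with all barcodes kept (737280 or 6794880 a library). Baboon genes carried Panubis1.0 symbols and rhesus genes Ensembl identifiers on Mmul_10; where a rhesus symbol occurred more than once, the entry with most UMIs was used. Library totals were 16875294 to 49803025 UMIs. Coordinates are those of RefSeq on the same builds.

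Cells were called with a UMI cutoff (99th percentile of the top 5000 barcodes, divided by 10) plus, from 500 UMIs, a test against the free RNA of barcodes 45001 to 90000 with 10000 simulations (adjusted p at most 0.01), and needed 200 genes. Cells with at least 3 markers of a class and 2 more than of any other gave each class its marker composition; the other cells were assigned at a posterior probability of 0.9. No doublet caller was run; cells with at least 3 markers of a second class were left out in an alternative. UMIs were summed per animal and class (Sertoli-like, germ-like, other) and tested with edgeR 4.0.16 (quasi-likelihood, TMM, filterByExpr) on R 4.3.3, each species alone, without an animal term. The 3 groups of a fit come from the same animals, and same-animal sums deviated together (r = 0.201 to 0.631 over genes). The fit with the animal as a replicate block is therefore given beside a member's difference where it changes the call. For the other lists its counts are given in some comparisons only. DESeq2 1.42.0 was an alternative. Exact intervals at 95% and the floor of 3 counts cover counting error only. In fits of animal sums without a block, each p measures the spread between 2 animals of differing age, pooled over the 3 groups. In baboon these animals also differ in chemistry. The block takes out what all groups of an animal share, so its p measures only the spread that is left.

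In simulated data 200 genes were changed by 2 log2, and recovery is the share of those passing the low-count filter. For Sertoli-like against other cells it was 52.9% in baboon (15478 genes) and 48.0% in rhesus (12881 genes) with spread along the trend. With spread drawn gene by gene it was 22.6% and 37.6%. Unchanged genes made up 4.08% to 4.76% and 15.7% to 21.5% of these calls. For germ-like against other cells recovery was lower, 40.2% and 35.2% along the trend and 17.9% and 21.1% gene by gene. There 2.56% to 2.82% and 5.56% to 14.3% of calls were unchanged genes. The simulated sums were independent, had no animal effect and differed between groups in the 200 genes only. In the data same-animal sums deviated together and many more genes were called. These shares are therefore not error rates of the fits to the data.

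All members were named; of the other lists, counts and up to 4 called genes of largest change per comparison. For LDHA, LDHB, SLC2A1 and SLC2A3 the 3 genes of highest correlation were named among those with a symbol and at least 50 CPM in 1 sum. The members and lists were chosen with earlier results of these data known. Lymphoid-like cells of rhesus were not used, because 1 animal gave 1 such cell.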

Additional observations from a re-analysis of the deposited data

How the results depend on the processing

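Of 15 member differences called, 255 values under alternatives kept direction and call in 225, lost the call in 24, moved by more than the spread without a test in 5 and turned in 1; the HK2 calls of Sertoli-like cells were among those that kept both. The calls lost were in LDHA, LDHB and HK2 of germ-like cells, mostly under other scalings or without cells carrying markers of another class, and in baboon LDHA and SLC16A3 and rhesus SLC2A1 and SLC2A3 as given above; the cause was not tested beyond the setting itself. Of 36 differences not called, 34 of 612 values passed the test, many with the animal as a block.

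The number of genes called in baboon Sertoli-like against other cells was 3675, and became 7034 with the replicate block and 1711 with the UMI cutoff alone. In rhesus it was 1664, and became 3405 with the replicate block, 2759 with no filter on low counts and 3906 with libraries as samples, which counts libraries of 1 animal as replicates. Without cells carrying markers of another class, the rhesus counts fell from 4299 to 2772 for germ-like against other cells and from 4033 to 2472 for Sertoli-like against germ-like cells, with fewer germ-like cells in the sums. The other 89 counts under alternatives were within 1.5 times the main count. Plain UMI totals as the scale were chosen after seeing the data.

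Values that turned sign were the following. HK2 of baboon germ-like against other cells became 0.19 from −1.30 with cells carrying markers of another class left out. In that setting SLC16A1 became −0.056 (baboon Sertoli-like against other), −0.59 (baboon germ-like against other) and 0.21 (rhesus germ-like against other), SLC16A3 −0.022 (baboon germ-like against other) and HK1 −0.13 (baboon Sertoli-like against germ-like). With stroma-like cells alone as the other cells, baboon SLC16A1 became −0.13, −0.11 and −0.020 in the 3 comparisons; with unassigned cells among the other cells it was −0.012 in germ-like against other cells. Baboon SLC16A1 in Sertoli-like against germ-like cells, 0.046, became −0.20 with DESeq2 size factors in edgeR, −0.20 with DESeq2, −0.62 on UMI totals, −0.13 with the UMI cutoff alone, −0.24 with seed cells only, −0.20 by whole profile and −0.15 with libraries as samples. In that comparison UMI totals gave −0.27 for HK1 and −0.46 for PKM, and PKM was −0.034 with DESeq2 size factors in edgeR and −0.034 with DESeq2. With the UMI cutoff alone, baboon PFKP became 0.15 in Sertoli-like and SLC16A3 −0.024 in germ-like against other cells. With no filter on low counts, PFKP became 0.061 (baboon Sertoli-like against other), LDHA 0.0023 (baboon Sertoli-like against germ-like) and −0.11 (rhesus germ-like against other), and HK1 −0.017 (rhesus germ-like against other), which was −0.096 with seed cells only. With the replicate block rhesus LDHA in germ-like against other cells became −0.058. Leaving out a library in turn, baboon SLC16A1 ran from −0.081 to 0.15 in Sertoli-like and from −0.096 to 0.23 in germ-like against other cells, and from −0.12 to 0.015 between Sertoli-like and germ-like cells; PFKP ran from −0.17 to 0.0093 in Sertoli-like and SLC16A3 from −0.089 to 0.60 in germ-like against other cells. Without rhesus 1, which leaves 1 animal and no test, rhesus SLC16A3 in germ-like against other cells became −1.40 from 1.44, LDHA −0.63 and HK1 −0.037, PFKP in Sertoli-like against other cells became −1.35 from 0.23, and SLC16A1 between Sertoli-like and germ-like cells 0.34 from −0.35. Without baboon 2, PKM between Sertoli-like and germ-like cells became −0.049.

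Precision was limited by 2 animals a species, 63 to 324 germ-like cells an animal, and few UMIs of SLC16A3, SLC2A1 and PFKP. In baboon the animals differ in chemistry. Where an animal was left out, 1 sum per class remained and no test was made.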
